A study of Mus musculus with 32 samples.

Results

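Tumour-associated macrophages and microglia (TAM) were compared with tumour cells (TC) sorted from the same vehicle-treated mouse gliomas, in a study of CSF-1R inhibition. The comparison took every library of the Vehicle stage, paired by the mouse number in the sample names: 10 of 32 libraries, 1 of TAM and 1 of TC from each of 5 mice (54359, 54363, 57098, 57682 and 64247). Gliomas were started by injecting DF-1 cells, a chicken fibroblast line, carrying PDGFB into the brains of XFM mice aged 5 to 6 weeks, per the labels. Mice entered with tumours of 20 to 40 mm3 and were given vehicle each day until symptoms or an age of 26 weeks. TC were the sorted cells with PDGFRA on the surface, and TAM the cells with CD11b and without Gr1. Every tumour in the series was driven by PDGFB, and the groups treated with BLZ945, a CSF-1R inhibitor, were Endpoint (6 TAM and 6 TC libraries) and Rebound (5 and 5). The agent label reads BLZ945 in the Vehicle libraries too, so treatment was read from the stage. The TAM gate does not part resident microglia from macrophages that came from blood monocytes, and the PDGFRA gate can also take oligodendrocyte precursor cells of the host.

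Microglia settle in the brain before birth and depend on signals through CSF-1R, whose ligands are CSF1 and IL-34. Together with monocytes that enter from the blood they form the largest immune population of many gliomas, where they take up debris, present antigen and secrete growth factors. Gliomas driven by PDGF resemble oligodendrocyte precursors, a dividing glial cell type that carries PDGFRA, receives synapses from neurons and is governed by the transcription factors OLIG2 and SOX10.

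TAM libraries held 25556830 to 30383148 counts and TC libraries 13126801 to 22989777. Levels are given in CPM (counts scaled to a common library size, here after TMM scaling), always in the order of mice 54359, 54363, 57098, 57682 and 64247. The 50 most abundant genes took 28.2 to 42.5% of the counts in TAM and 12.8 to 26.6% in TC, and the ribosomal precursor Rn45s took 0.391 to 11.1%. The share of Rn45s was 0.391 to 2.07% in libraries of mice 57098 and 57682 and 6.83 to 11.1% in those of the other mice. Where a marker list is given below, the value is the sum of its genes in CPM. Summed over 16 myeloid markers, the TC libraries held 0.343 to 3.0% of the level in the TAM library of the same mouse, with the highest share in mouse 54363. Summed over 12 tumour and oligodendrocyte precursor markers, the TAM libraries held 0.731 to 3.61% of the TC level. The 10 astrocyte markers summed to 2404 to 13450 CPM in TC, with the highest sum in mouse 54363, and to 1660 to 3078 CPM in TAM. Of these markers 9 were higher in TC, while the glutamate transporter gene Slc1a3 was higher in TAM (2.06) and made up 1439 to 2900.4 CPM of the TAM sums. The 10 markers of myelinating oligodendrocytes summed to 2449 to 14264 CPM in TC, again highest in mouse 54363, and to 439 to 899 CPM in TAM. Of these myelin markers 9 were higher in TC, while Mag was higher in TAM (2.02). Markers of T and NK cells summed to 4.84 to 13.7 CPM in TAM and 5.27 to 11.6 CPM in TC. The 9 neutrophil markers summed to 566 to 1260 CPM in TAM, of which Csf3r, a cytokine receptor that microglia also express, made up 354 to 905 CPM, and they summed to 2.85 to 72.2 CPM in TC. Retnlg, a neutrophil gene, was higher in TAM at 157, 22.5, 261, 614 and 363 CPM in TAM and 1.12, 2.29, 1.03, 0.419 and 15.5 CPM in TC, with a log2 difference of 6.58 ± 1.12 (SE, adjusted p = 0.00144). The granule protein gene Ngp was also called higher in TAM (3.57, adjusted p = 0.0498), at 0.494 to 46.7 CPM, but the call was lost without the mouse as a block, under library totals and when mouse 54359, 57098, 57682 or 64247 was left out. S100a8 and S100a9 did not pass, at 2.58 to 17.5 and 0.774 to 9.43 CPM in TAM. S100a9 (log2 difference 3.06) was called higher in TAM without the mouse as a block, with DESeq2 and when mouse 54363 was left out. Under library totals S100a9 did not pass. With mice 57098 and 57682 alone, a setting chosen after seeing the data, both genes were called higher in TAM. The TC libraries of mice 54359, 54363 and 64247 held both Xist and Y-linked transcripts, while each TAM library held 1 kind almost alone; the counts without these 3 mice, whose values are given at the end, were 3835 genes higher in TAM and 4126 higher in TC. The part of other cells in the differences between TAM and TC was not tested.

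The genes of the sorting gates followed the labels. Itgam, which encodes CD11b, was at 3059.7, 1826, 3041, 3963 and 2697 CPM in TAM and 37.1, 27, 23.9, 8.54 and 34.6 CPM in TC. Pdgfra was at 1218, 347, 2165, 2791 and 1072 CPM in TC and 6.61, 3.3, 9.3, 3.87 and 6.49 CPM in TAM. These genes chose the cells, so their difference is a check of the sort and no result, and for Itgam 68.7% of the exon length overlaps another gene, which counts without strand cannot part.

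TAM and TC differed in most of the genes they express. Of 14022 genes tested, 8001 (57.1%) passed the threshold of 0.05 on the adjusted p of edgeR's quasi-likelihood test with the mouse as a block: 3933 (28%) were higher in TAM and 4068 (29%) higher in TC. Tested against a difference of 2-fold, 5030 genes (35.9%) passed, 2372 (16.9%) higher in TAM and 2658 (19%) higher in TC. For 6170 genes (44%) no TC library overlapped the range of the TAM libraries. The median log2 difference, TAM minus TC, over all genes tested was -0.02. This balance rests on TMM scaling: with library totals in its place, a setting chosen after seeing the data, the median was -0.92, and 2179 genes were higher in TAM against 7252 in TC, or 1497 against 4566 beyond 2-fold. Below, "higher" means passing the first test, log2 differences are TAM minus TC with their standard error (SE), and the shares 28% and 29% are the background for every count of genes. In such bulk libraries fewer cells of a type and less RNA per cell cannot be told apart.

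**Figure D1:**
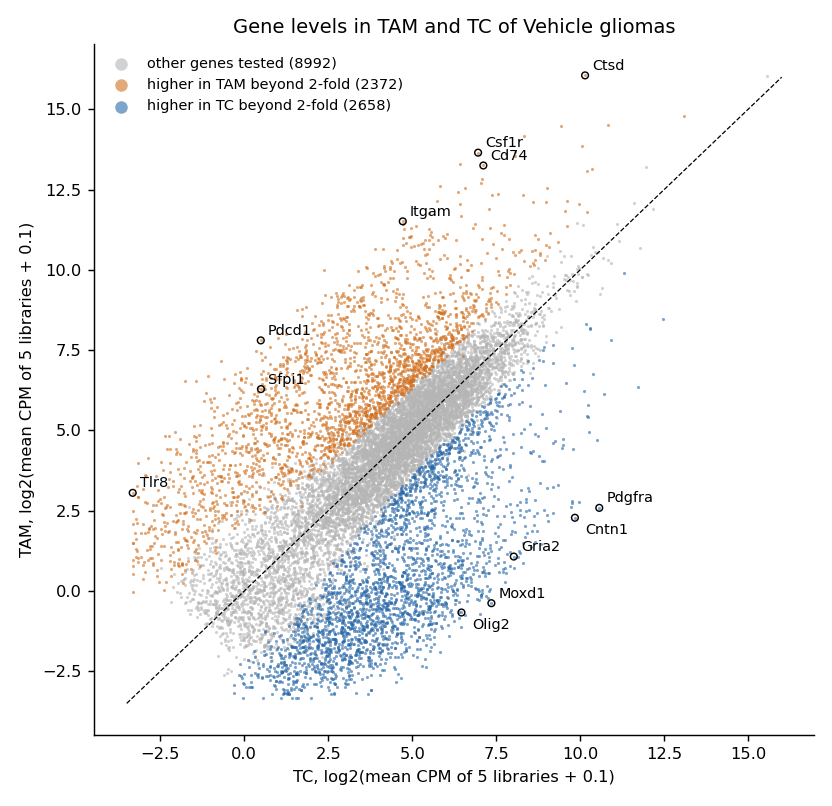
Level of each gene tested as the log2 of its mean CPM, with 0.1 added, over the 5 TC libraries (horizontal) and the 5 TAM libraries (vertical). Orange points are the 2372 genes higher in TAM beyond 2-fold, blue points the 2658 genes higher in TC beyond 2-fold and grey points the rest, and the named points are the 2 gate genes and 10 genes of the text, which lie far from the diagonal.

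Among abundant genes, the widest gap on the TAM side belonged to B430306N03Rik, a gene of the Trem receptor cluster on chromosome 17, at 116, 96.5, 161, 198 and 145 CPM in TAM and 0.203, 0.186, 1.51, 0.419 and 0.253 CPM in TC. The log2 difference was 8.38 ± 0.47 (SE, adjusted p = 7.75e-06). Lrrc25, Siglece, Nfam1, Cd22 and Tifab, which encode surface receptors and an adaptor of myeloid signalling, followed with log2 differences of 8.29, 7.54, 7.52, 7.38 and 7.76. Abcc3, an exporter of organic anions, was at 1453, 868, 819, 1189 and 729 CPM in TAM and 7.66, 7.19, 7.2, 1.32 and 2.06 CPM in TC. Its log2 difference was 7.86 ± 0.56 (SE, adjusted p = 1.89e-05), and the lowest TAM library stood far above the highest TC library. Ccr1, a receptor for the chemokine CCL3, ranged from 56.3 to 446 CPM in TAM, highest in mouse 57682, and from 0.355 to 3.33 CPM in TC. The same list of 12 also held Gna15, a G-protein alpha subunit of blood cells (7.27), Sh3tc1 (7.44) and Ugt1a7c (7.47), of whose exon length 54.6% overlaps other genes.

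The remaining member of the 12 was Pdcd1, which encodes the checkpoint receptor PD-1, best known from T cells. It was at 387, 169.7, 221, 203 and 136 CPM in TAM and 0.558, 0.744, 2.1, 0.270 and 2.86 CPM in TC. The log2 difference was 7.65 ± 0.70 (SE, adjusted p = 5.58e-05), with no overlap of the groups. The T cell gene Cd3e lay at 1.11, 0.671, 0.557, 0.378 and 0.586 CPM in the same TAM libraries. Cd274, which encodes the PD-1 ligand PD-L1, was higher in TAM as well, at 48.5, 34.6, 222, 90.3 and 30.8 CPM in TAM and 0.507, 0.744, 6.79, 2.04 and 3.58 CPM in TC, with a log2 difference of 5.08 ± 0.50 (SE).

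On the TC side, Moxd1, a monooxygenase-like protein, had the widest gap, at 72.5, 33.4, 237, 162 and 315 CPM in TC and 0, 0.361, 0.386, 0.547 and 2.05 CPM in TAM. Its log2 difference was -8.09 ± 0.58 (SE, adjusted p = 1.9e-05). Cntn1, an adhesion molecule that binds the phosphatase PTPRZ1, was at 744, 368, 1493, 1500.1 and 488 CPM in TC and 4.76, 2.48, 4.29, 7.15 and 5.12 CPM in TAM, with a log2 difference of -7.45 ± 0.35 (SE, adjusted p = 5.06e-06). Both genes were lowest in the TC library of mouse 54363, yet far above every TAM library. Nell2 and Lrrtm3, secreted and synaptic proteins of neural cells, differed by -7.37 and -7.54. Fam5c, Cyp2j6, Tspan6, Npdc1, Lhfpl3, 3632451O06Rik and Cldn11 completed the 12 with Pdgfra, with log2 differences of -7.85, -7.68, -7.50, -7.42, -7.42, -7.37 and -7.34. Cldn11 is a tight junction protein of myelin and also one of the myelinating oligodendrocyte markers above; its TC level was lowest, at 42.3 CPM, in mouse 54363, the library in which the sum of those markers was highest.

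Lineage transcription factors separated the populations. Of 23 macrophage factors tested, 21 were higher in TAM and 2 were not called, with a median log2 difference of 3.63 against -0.02 for all genes. Sfpi1, which encodes PU.1, the factor required for the myeloid lineage, was at 136, 94, 17, 32.5 and 110.3 CPM in TAM and 0.558, 1.3, 0.177, 0.180 and 4.34 CPM in TC. Its log2 difference was 6.43 ± 0.53 (SE, adjusted p = 3.5e-05), although TAM of mice 57098 and 57682 held less of it than the other TAM. Irf8, which partners PU.1 at microglial enhancers, was at 1432, 1067, 721, 459 and 760.1 CPM in TAM and 48.8, 54.2, 66.7, 22.2 and 38.6 CPM in TC. Sall1, a factor that holds microglia in their resident state, was at 389.9, 291, 321, 246 and 153 CPM in TAM and 9.63, 33.5, 29.7, 19.7 and 15.5 CPM in TC, and its log2 difference of 3.74 ± 0.35 (SE) was smaller than that of Lyl1 (6.06) or Ikzf1 (5.72). Nr1h3, the oxysterol receptor LXR alpha, did not pass, at 7.52 ± 2.62 CPM in TAM and 3.21 ± 3.58 CPM in TC (SD, n = 5 each).

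PU.1 binds a purine-rich sequence, and many myeloid promoters that lack a TATA box carry it close to the start of transcription. The letters GAGGAAGT, searched on both strands, were found in the 300-base window around the start in 3.20% of 32851 RefSeq promoters, in 3.07% of 13975 promoters of the genes tested, in 5.98% of 2409 promoters of genes higher in TAM beyond 2-fold and in 1.89% of 2700 promoters of genes higher in TC beyond 2-fold. In the 150 bases from 120 before to 30 after the start the shares were 1.71% of all promoters and 1.87% of those of genes tested. They were 4.15% of those of genes higher in TAM beyond 2-fold and 1.07% of those of genes higher in TC beyond 2-fold. The following stretches run from 120 bases before to 30 bases after the start on the gene's strand (RefSeq, GRCm38.p6), with those letters, or their reverse complement, in capitals. They were chosen after their values were seen, from genes higher in TAM that hold the letters within 72 bases of the start: 3 genes of leukocyte signalling and the gene with the widest gap.
Inpp5d, chr1:87620192-87620341, plus strand: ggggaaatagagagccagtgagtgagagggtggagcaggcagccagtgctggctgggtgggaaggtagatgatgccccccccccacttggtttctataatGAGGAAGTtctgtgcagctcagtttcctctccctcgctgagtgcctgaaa
Vav1, chr17:57278980-57279129, plus strand: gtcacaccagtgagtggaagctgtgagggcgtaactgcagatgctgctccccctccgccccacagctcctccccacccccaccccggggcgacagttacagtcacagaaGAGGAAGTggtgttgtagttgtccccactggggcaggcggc
Fcgr4, chr1:171018806-171018955, plus strand: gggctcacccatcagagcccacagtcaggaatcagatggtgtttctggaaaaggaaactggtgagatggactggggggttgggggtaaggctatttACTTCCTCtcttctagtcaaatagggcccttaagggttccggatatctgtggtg
B430306N03Rik, chr17:48316042-48316191, plus strand: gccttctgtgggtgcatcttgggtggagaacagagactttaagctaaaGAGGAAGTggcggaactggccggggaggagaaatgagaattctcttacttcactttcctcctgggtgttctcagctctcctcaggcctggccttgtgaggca
Inpp5d encodes the lipid phosphatase SHIP1, and its letters begin 20 bases before the start. It was at 1425, 1140.3, 1369.9, 1471 and 1005 CPM in TAM and 26.5, 47.1, 15.3, 5.3 and 23 CPM in TC, with a log2 difference of 6.04 ± 0.56 (SE). Vav1, an exchange factor for Rac, has them 11 bases before the start and was at 811, 565, 534, 476 and 536 CPM in TAM and 7.3, 13, 6.32, 2.64 and 4.08 CPM in TC, with a log2 difference of 6.63 ± 0.36 (SE). Fcgr4, an activating IgG receptor, carries them on the opposite strand from 24 bases before the start and was 5.77 on the log2 scale, at 159.7 ± 56.8 CPM in TAM and 3.55 ± 2.39 CPM in TC (SD, n = 5 each). In the 300-base windows the letters AAGTGAAA, part of the site of interferon regulatory factors, were in 1.60% of all promoters, 1.40% of those of genes tested, 2.95% of those higher in TAM and 0.667% of those higher in TC. For ACAAAG, the core of the SOX site, the share was 18.7% of all promoters, 14.2% of those of genes tested, 15.5% of those higher in TAM and 16% of those higher in TC. These are matches of letters and not measured binding, GAGGAAGT and AAGTGAAA can share their AAGT where sites overlap, and 10907 of 14021 gene symbols matched the promoter table.

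Of 34 glial and progenitor factors tested, 30 were higher in TC, 3 were not called and Etv5 was higher in TAM, with a median of -5.91. Olig2 was at 86.6, 73.5, 86.3, 88.9 and 106 CPM in TC and 0.309, 1.03, 0.472, 0.294 and 0.537 CPM in TAM, a nearly even level across the 5 TC libraries, with a log2 difference of -7.44 ± 0.38 (SE, adjusted p = 6e-06). Sox11, a factor of neural progenitors, was at 143, 251, 359, 481 and 209.6 CPM in TC and 2.47, 1.03, 1.54, 3.24 and 2.98 CPM in TAM. Nkx2-2, a factor of the oligodendrocyte lineage, was at 22.6, 12.2, 18.8, 15.6 and 12.5 CPM in TC and 0.185, 0.0516, 0.0429, 0.0421 and 0 CPM in TAM. Mycn was at 5.22, 3.84, 7.41, 11 and 12 CPM in TC and had 2 counts in all 5 TAM libraries, so no fold is given. Its relative Myc did not pass, at 127 ± 42.8 CPM in TAM and 112 ± 51.3 CPM in TC (SD, n = 5 each). Etv5, a target of receptor tyrosine kinase signalling in precursors, went the other way at 324, 275, 214, 168 and 183 CPM in TAM and 104, 105, 106, 87.6 and 98.3 CPM in TC, and the TC level was 32.2 to 53.9% of the TAM level of the same mouse, above the 0.343 to 3.0% of the myeloid markers. Under library totals the log2 difference of Etv5 was 0.27 (adjusted p = 0.209).

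**Figure D2:**
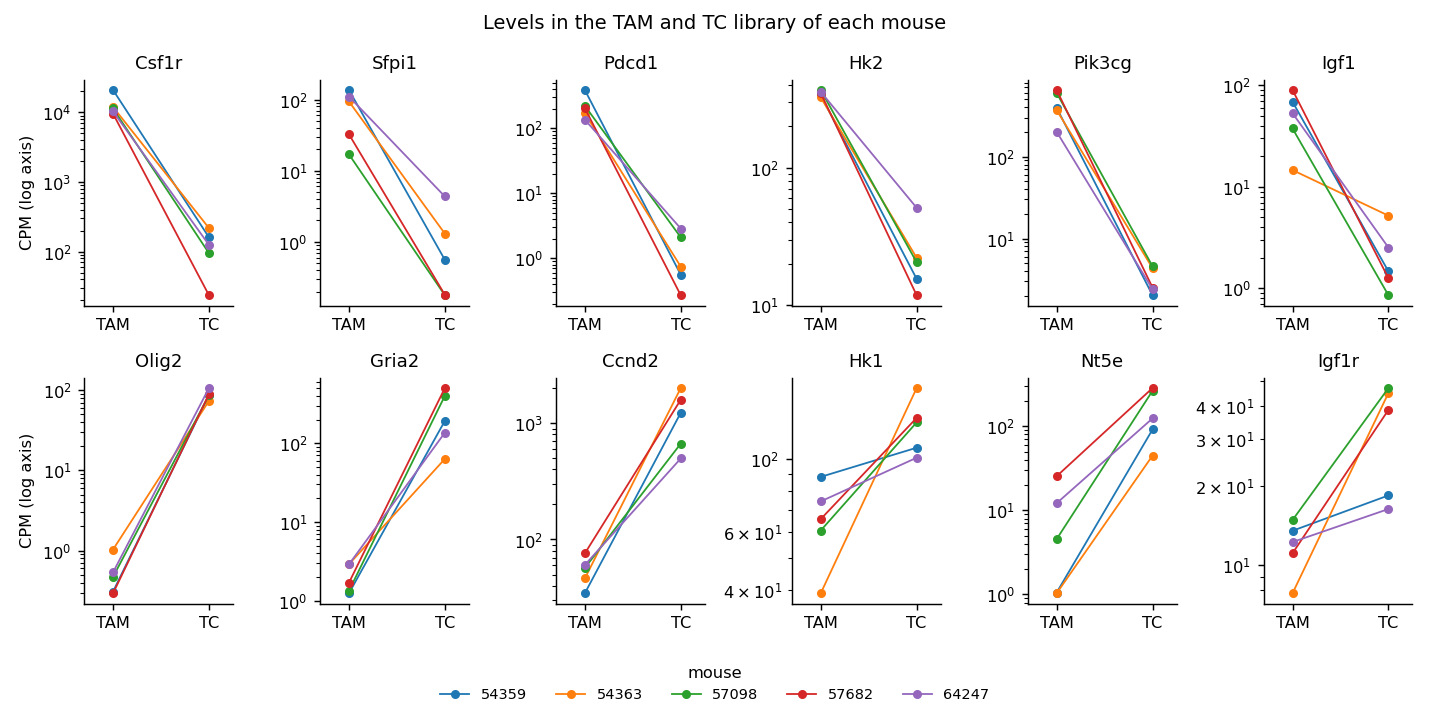
CPM on a log axis, with a range of its own in each panel, of 12 genes in each library, with a line joining the TAM (left) and TC (right) library of the same mouse. The upper row holds genes higher in TAM and the lower row genes higher in TC, and in each panel the 5 lines slope the same way.

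All 25 genes of homeostatic microglia were higher in TAM, with a median log2 difference of 6.06. Csf1r, the receptor that BLZ945 blocks, was at 20988, 11960.4, 11388, 9584 and 10327 CPM in TAM and 161, 218, 95, 23.7 and 125 CPM in TC. Cx3cr1, the fractalkine receptor, was at 7764, 5355, 5725, 7311 and 5267 CPM in TAM and 45.1, 86.6, 58.4, 22.9 and 70.1 CPM in TC. The log2 differences were 6.92 ± 0.52 (SE, adjusted p = 2.36e-05) and 6.89 ± 0.47 (SE, adjusted p = 1.66e-05). P2ry12 and Tmem119, used to tell microglia from blood macrophages, were at 3472 ± 1187 and 2748 ± 1439 CPM in TAM (SD, n = 5). The list of genes known from monocyte-derived macrophages was split: of 26 tested, 16 were higher in TAM, 3 (Cd163, S100a10 and Vim) higher in TC and 7 not called, with a median of 2.53. Under library totals 15 were higher in TAM and 5 in TC. Ccr2, the receptor that brings monocytes out of the marrow, was at 47.1, 45.8, 145, 919 and 137 CPM in TAM and 1.22, 3.1, 0.827, 3.56 and 2.57 CPM in TC, highest in TAM of mouse 57682. Mrc1, a mannose receptor, was at 25.1, 6.86, 74, 55.2 and 16.5 CPM in TAM and 1.37, 0.744, 0.768, 0.0300 and 0 CPM in TC, and F10, coagulation factor X, differed by 6.24. S100a10 was at 109, 243, 109, 63.4 and 296 CPM in TC and 14.5, 8.36, 18.1, 22.3 and 18.6 CPM in TAM, and the scavenger receptor gene Cd163 at 10.5, 7.32, 13.1, 10.8 and 1.43 CPM in TC and 0.371, 0.206, 4.67, 1.85 and 0.195 CPM in TAM, where the groups overlap. S100a6 did not pass, at 35.8 ± 12.3 CPM in TAM and 124 ± 115 CPM in TC (SD, n = 5 each).

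Immune receptors and the signalling below them were mostly higher in TAM. All 23 adaptors and Fc receptors tested were higher in TAM, with a median of 5.93. The inhibitory receptors Cd300a and Cd300lf led them at 7.04 ± 0.44 (SE) and 6.95 ± 0.33 (SE). Of 24 Toll-like receptor and innate signalling genes, 22 were higher in TAM and 2 were not called. Tlr8, a sensor of single-stranded RNA, had no count in any TC library and 4.14, 1.13, 6.52, 24.2 and 5.07 CPM in TAM, which is at least 348-fold higher than the level of 3 counts over the TC libraries. Nlrp3, the inflammasome sensor, was at 54.4, 65.8, 52.6, 44.8 and 24.4 CPM in TAM and 0.406, 0.992, 0.354, 0.0899 and 0.337 CPM in TC. Irak1, a kinase shared by many tissues, did not pass, at 51.5 ± 5.0 CPM in TAM and 53.9 ± 15.9 CPM in TC (SD, n = 5 each). All 7 tested NADPH oxidase genes were higher in TAM, led by Hvcn1, the proton channel that balances its charge (6.63, 44.2% of its exon length overlapping another gene), and the subunit Ncf1 (6.37).

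Complement genes were mostly higher in TAM. Of 19 complement genes tested, 14 were higher in TAM, 1 was higher in TC and 4 were not called. The gate gene Itgam is among the 14. C1qb, a chain of the C1q recognition molecule, was at 16361, 14906, 7509, 8375 and 15182 CPM in TAM and 187, 451, 123, 34.4 and 314 CPM in TC, and the receptor C5ar1 differed by 6.76 ± 0.54 (SE). Serping1, which encodes the inhibitor of C1, was at 7.2, 15.3, 118, 11.6 and 5.73 CPM in TC and 0.0618, 0, 4.12, 0.463 and 0.732 CPM in TAM, with a log2 difference of -5.04 ± 0.75 (SE, adjusted p = 0.000684). Serping1 was highest in TC of mouse 57098, far above every other TC library. C4b did not pass, at 634 ± 377 CPM in TAM and 465 ± 334 CPM in TC (SD, n = 5 each).

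Of 31 lysosomal genes, 30 were higher in TAM, with a median of 3.61. Cd68, a glycoprotein of macrophage lysosomes, differed by 6.32 ± 0.46 (SE). Atp6v1a, part of the proton pump that every cell uses, was not called at 263 ± 87.5 CPM in TAM and 194 ± 38.9 CPM in TC (SD, n = 5 each). Antigen presentation genes were higher in TAM: all 14 MHC class II genes tested, with a median of 5.70, and 17 of 19 MHC class I genes, with a median of 3.64. Cd74, the invariant chain, was at 8764, 5137, 14113, 13534 and 7155 CPM in TAM and 129, 114, 156, 75.8 and 219 CPM in TC, and the costimulator Cd86 differed by 6.10 ± 0.78 (SE). H2-T23, a nonclassical class I gene, was at 511, 305, 904, 358 and 218 CPM in TAM and 12.1, 18, 76.8, 13.4 and 19.2 CPM in TC, highest in mouse 57098 on both sides. Class I genes are near-identical to one another, so reads can be split among them; H2-Q7 is listed at 0 in all 10 libraries and H2-Q4 did not pass.

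The type I interferon list held 30 genes higher in TAM, 1 higher in TC and 2 not called out of 33, with a median of 2.44. With library totals in place of TMM, 22 were higher in TAM. Oas3 and Mx1, antiviral effectors, were at 15.1, 12.2, 89.5, 79.7 and 23.8 and at 9.27, 12.7, 87.4, 50.3 and 13.8 CPM in TAM, so TAM of mice 57098 and 57682 held several times the level of the other TAM. In TC, Oas3 was at 0.152, 0.124, 0.177, 0.389 and 4.17 CPM, highest in mouse 64247, and Mx1 at 0.0507, 1.49, 1.71, 0.959 and 0.421 CPM. Cmpk2, a mitochondrial kinase induced by interferon, was higher in TC at -0.92, with overlapping groups, and lost its call when any of mice 54359, 54363, 57098 or 57682 was left out. Of 26 cytokines and chemokines, 18 were higher in TAM, 3 (Cxcl1, Cxcl14 and Lif) higher in TC and 5 not called. Tnf was at 10.9, 32.3, 18.9, 11.6 and 13.6 CPM in TAM and at most 0.0886 CPM in any TC library. Cxcl9, induced by interferon gamma, was highest in TAM of mouse 57098, at 7.17, 2.63, 58.9, 8.41 and 2.29 CPM in TAM and 0.0507, 0.0620, 0.443, 0.0300 and 0 CPM in TC. Cxcl1, a neutrophil attractant, was at 20.2, 85.3, 0.354, 0.0300 and 14.5 CPM in TC and 0.927, 3.71, 0.0429, 0 and 0.829 CPM in TAM: it was higher in TC than in TAM of the same mouse in all 5, but high in TC of mice 54359, 54363 and 64247 and near 0 in the other two.

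Receptor, synaptic adhesion and channel genes of neural cells were mostly higher in TC. Of the 10 neuron markers 9 were higher in TC as well, with a median of -3.97 and a sum of 243 to 469 CPM in TC against 8.87 to 17.4 CPM in TAM, and their part in these lists was not tested. All 27 glutamate and GABA receptor genes tested were higher in TC, with a median of -5.25. Gria2, the AMPA receptor subunit that limits calcium entry, was at 193, 63.4, 402, 505 and 137 CPM in TC and 1.24, 2.89, 1.33, 1.68 and 2.88 CPM in TAM. Cacng5, an auxiliary subunit of AMPA receptors, was at 51.2, 44.1, 66.3, 176 and 161 CPM in TC and 0, 0.413, 0.172, 0.378 and 2.59 CPM in TAM. The log2 differences were -6.76 ± 0.70 (SE, adjusted p = 0.000101) and -7.65 ± 0.65 (SE, adjusted p = 3.89e-05). Of 33 synaptic adhesion genes, 28 were higher in TC, 1 (Cadm1) was higher in TAM and 4 were not called. Lrrtm1, a postsynaptic partner of neurexins, had 22.1, 7.87, 12.6, 20.3 and 5.22 CPM in TC and 2 counts in all TAM libraries. Cadm1 was at 296, 196, 224, 189 and 98.6 CPM in TAM and 78.2, 69.5, 109.6, 125 and 68.3 CPM in TC, and under library totals its difference of 0.21 (adjusted p = 0.443) did not pass.

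Of 29 channel genes, 17 were higher in TC and 6 in TAM. Kcnd3 and Kcnd2, which carry A-type potassium current, differed by -7.22 ± 0.36 (SE) and -6.87 ± 0.86 (SE). In TAM, Kcnj2, an inward rectifier long known from microglia, was at 245, 90.8, 179, 95.3 and 35.2 CPM in TAM and 1.27, 0.930, 6.58, 1.02 and 0.0842 CPM in TC, with a log2 difference of 6.59 ± 0.54 (SE, adjusted p = 3.31e-05). Of 30 genes of proteoglycans and brain matrix, 25 were higher in TC, Fn1 was higher in TAM and 4 were not called, with a median of -4.45. Col11a1, a fibrillar collagen chain, was at 211, 97.8, 852, 539.9 and 582 CPM in TC and 2.84, 2.27, 1.54, 0.883 and 5.61 CPM in TAM, and Sdc2, a syndecan, differed by -7.20 ± 0.39 (SE). Fn1, fibronectin, was at 809, 476, 671, 2379.8 and 1378 CPM in TAM and 93, 239, 62.3, 54.7 and 89.7 CPM in TC, so the TC library of mouse 54363 held 50.1% of the level in its TAM partner and the other TC libraries 2.3 to 11.5%. Its log2 difference was 3.42 ± 0.61 (SE, adjusted p = 0.00175).

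Cell division genes differed less than lineage genes, and the split depends on scaling. Of 39 G2/M genes, 21 were higher in TC and 18 were not called, with a median of -0.89, and under library totals 37 were higher in TC. Cdc25c and Ccna2, which drive entry into mitosis, differed by -2.41 ± 0.44 (SE) and -2.09 ± 0.44 (SE). Mki67 was at 14.1, 64.9, 132, 59.4 and 101 CPM in TAM and 72.5, 107, 134, 162 and 112 CPM in TC and did not pass (adjusted p = 0.0532), with TAM of mouse 54359 well below the other 4 TAM libraries. It was called higher in TC with RLE size factors, with DESeq2, under library totals and when mouse 57098 or 64247 was left out. Of 33 G1/S genes, 4 were higher in TAM and 6 in TC, with a median of -0.23, and under library totals 1 and 24. Mcm3, a subunit of the replicative helicase, was nonetheless higher in TAM under both scalings, at 258, 338, 365, 325 and 343 CPM in TAM and 70.2, 72, 172, 147 and 104 CPM in TC, with a log2 difference of 1.61 ± 0.22 (SE, adjusted p = 0.000424). Nasp, a histone chaperone, was higher in TC at -1.59.

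All 3 D-type cyclins were higher in TC, and of their kinases Cdk4 was higher in TC and Cdk6 in TAM. Ccnd1 was at 1591, 2323, 849.6, 888 and 1028 CPM in TC and 98.3, 158, 89, 71.8 and 121 CPM in TAM, and Ccnd2 at 1229, 2006, 667, 1592 and 497 CPM in TC and 34.5, 46.2, 56.9, 75.9 and 60.4 CPM in TAM. Their log2 differences were -3.57 ± 0.23 (SE, adjusted p = 1.23e-05) and -4.32 ± 0.42 (SE, adjusted p = 7.73e-05), and Ccnd3 followed at -1.30. Of the kinases that these cyclins activate, Cdk4 was higher in TC at 529.9, 500.3, 502, 389 and 619 CPM in TC and 205, 226, 165, 182 and 296 CPM in TAM. Cdk6 was higher in TAM at 8.28, 9.18, 10.7, 9.04 and 12.6 CPM in TAM and 0.862, 0.186, 0.236, 0.210 and 0.168 CPM in TC, with a log2 difference of 5.15 ± 0.62 (SE, adjusted p = 0.000209). No library of one population overlapped the other for either kinase. Under library totals the log2 difference of Cdk6 was 4.28 (adjusted p = 0.000729) and that of Cdk4 -2.16 (adjusted p = 2.98e-05).

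Glycolysis genes were called on both sides. Of 29 glycolysis genes, 15 were higher in TAM, 8 higher in TC and 6 not called. Among hexokinases, Hk2 was at 335, 323, 366, 347 and 355 CPM in TAM and 15.5, 22.1, 20.5, 11.8 and 51 CPM in TC, and Hk3 at 364, 315, 617, 284 and 363 CPM in TAM and 5.53, 5.52, 7.59, 0.449 and 10.7 CPM in TC. Hk1 was higher in TC at 108, 164, 129, 133 and 101 CPM in TC and 88.2, 39.2, 60.7, 65.7 and 74.4 CPM in TAM. The log2 differences were 4.03 ± 0.33 (SE, adjusted p = 3.19e-05), 6.35 ± 0.61 (SE, adjusted p = 7.12e-05) and -0.97 ± 0.27 (SE, adjusted p = 0.0152). Slc2a5, a fructose transporter and microglial marker, differed by 6.79 ± 0.51 (SE), and the glucose transporter Slc2a1 by 2.15 ± 0.30 (SE). Aldoc, the brain aldolase, was at 1800.2, 2431, 835, 604 and 295 CPM in TC and 57.8, 25.1, 45.2, 54.3 and 29.5 CPM in TAM, highest in TC of mice 54359 and 54363, whose sums of astrocyte markers, of which Aldoc is itself one, were also the highest. Pfkl was higher in TAM (2.09) and Pfkm and Pfkp in TC (-2.94 and -1.51). Ldhb was higher in TC at 447, 521, 309, 334 and 298 CPM in TC and 42.4, 24.6, 26.5, 41.5 and 359 CPM in TAM, except that TAM of mouse 64247 exceeded its TC partner. Ldha was higher in TAM at 0.68, but under library totals its difference was -0.22 (adjusted p = 0.376). Eno1 is listed at 10.5 CPM in TAM and 5.97 CPM in TC, too low for a gene that every cell uses, so it is left as uncertain.

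Lipid genes were called on both sides. Of 23 cholesterol synthesis genes, 18 were higher in TC, Ebp was higher in TAM and 4 were not called, with a median of -1.40. Sqle, squalene epoxidase, was at 141, 75.2, 314, 249 and 192 CPM in TC and 5.44, 14.3, 53.2, 12.8 and 19.9 CPM in TAM, and Hmgcs1, which makes HMG-CoA, at 356, 394, 865, 615 and 263 CPM in TC and 61.1, 39.3, 141, 111 and 72.2 CPM in TAM. The log2 differences were -3.43 ± 0.39 (SE, adjusted p = 0.000175) and -2.56 ± 0.24 (SE, adjusted p = 5.74e-05). Of 19 genes of lipid uptake and export, 16 were higher in TAM, Fabp7 was higher in TC and 2 were not called, with a median of 3.06. Abca1 and Abcg1, which hand cholesterol to lipoproteins, differed by 2.91 ± 0.32 (SE) and 3.46 ± 0.28 (SE). Apoe was at 36085, 10759.9, 3875, 8517 and 15039 CPM in TAM and 1698, 2471, 287, 216 and 614 CPM in TC. The scavenger receptors Cd36 and Msr1 differed by 6.42 and 6.17, and Cd36 was highest by far in TAM of mouse 57098 (47.6, 71.4, 563, 55.8 and 21.8 CPM). Fabp7, the fatty acid-binding protein of radial glia, was at 1146, 1104, 530.4, 746 and 809.5 CPM in TC and 7.35, 5.93, 3.82, 8.16 and 7.32 CPM in TAM, with a log2 difference of -7.05 ± 0.26 (SE, adjusted p = 3.23e-06).

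Of 38 oxidative phosphorylation genes, 13 were higher in TC and 25 were not called, with a median of -0.36. Ndufa5 and Ndufa4 led them at -1.44 and -1.17, and under library totals all 38 were higher in TC. Of 17 serine and one-carbon genes, 8 were higher in TC and 3 in TAM, and under library totals 13 and 0. Gldc, which splits glycine, was at 21.2, 32.7, 29.6, 30.5 and 24.5 CPM in TC and 2.29, 0.206, 0.257, 0.505 and 0.488 CPM in TAM, and Asns, asparagine synthetase, at 14.5 ± 10.9 CPM in TAM and 145 ± 43.2 CPM in TC. Glul, glutamine synthetase, was higher in TAM at 791, 570.4, 374, 373 and 537 CPM in TAM and 429.6, 595, 177, 197 and 104 CPM in TC, with overlapping groups, and TC of mice 54359 and 54363, the libraries with the most astrocyte markers, held the most among TC. Its call was lost under library totals, at 0.12 (adjusted p = 0.746), without the mouse as a block and when mouse 54359, 57098 or 64247 was left out.

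Related genes were compared in families chosen by hand with earlier results of these data known, so the counts describe these families alone and have no background share. Of 49 families of related genes, 27 had at least 1 member higher in TAM and another higher in TC, 10 had called members in TAM alone and 12 in TC alone. In the actin machinery, Pfn1 was at 1240.4, 1325, 1018, 791 and 1935 CPM in TAM and 438, 457, 317, 206 and 597 CPM in TC, and Pfn2 at 388, 324, 241, 251 and 283 CPM in TC and 4.2, 7.89, 5.83, 7.7 and 2.34 CPM in TAM. The log2 differences of these profilins, which feed actin monomers to growing filaments, were 1.67 ± 0.18 (SE, adjusted p = 0.000135) and -5.81 ± 0.36 (SE, adjusted p = 1.09e-05). Lcp1, the plastin of leukocytes, differed by 6.55 ± 0.54 (SE) and its relative Pls3 by -2.80 ± 0.44 (SE). Arpc1b and Arpc1a, alternative subunits of the ARP2/3 complex, differed by 1.52 ± 0.23 (SE) and -1.58 ± 0.18 (SE). Wasf2 and Was were higher in TAM (3.36 and 4.06), and Wasf1 and Wasl in TC (-6.18 and -1.76). The Rac GTPase of blood cells, Rac2, was at 979, 902, 882, 1198 and 1479.9 CPM in TAM and 16.5, 51.2, 15.6, 6.77 and 46.8 CPM in TC, while Rac1 did not pass at 178 ± 60.0 CPM in TAM and 196 ± 60.5 CPM in TC (SD, n = 5 each). Tmsb4x and Tmsb10, which hold actin monomers, went apart at 3.03 ± 0.32 (SE) and -1.55 ± 0.29 (SE).

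Of the PI3K catalytic subunits, Pik3cd was at 416, 331, 309, 255 and 285 CPM in TAM and 1.93, 18.6, 4.9, 3.65 and 4.13 CPM in TC, and Pik3cg at 395, 371, 600.3, 651 and 202 CPM in TAM and 2.03, 4.34, 4.58, 2.52 and 2.4 CPM in TC. The widely expressed Pik3ca was higher in TC at 33.9, 55.3, 51, 63.2 and 29.8 CPM in TC and 23.5, 24, 28.2, 33.2 and 18.9 CPM in TAM, with overlapping groups. The regulatory subunit Pik3r5, a partner of PIK3CG, differed by 7.02 ± 0.55 (SE), and Pik3r1 and Pik3r3, partners of the class IA subunits, by -1.42 ± 0.18 (SE) and -3.55 ± 0.44 (SE). The kinase Akt1, which acts below PI3K, did not pass (0.26). In the Src family, Lyn and Fgr were higher in TAM (3.66 and 6.14) and Fyn, Src and Yes1 in TC (-3.71, -0.90 and -1.11), though Src and Yes1 each lost the call in 3 of the 5 fits that leave out 1 mouse. The phosphatase SHP-1, encoded by Ptpn6, differed by 5.95 ± 0.42 (SE) and SHP-2, encoded by Ptpn11, by -1.61 ± 0.35 (SE).

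Of 23 splicing regulators, 12 were higher in TC and 5 in TAM, and under library totals 15 and 3. Ptbp1, which represses neural exons, was at 265, 253, 237, 215 and 289.5 CPM in TAM and 70.4, 65.3, 119.9, 107 and 80.0 CPM in TC, and its neural relative Ptbp2 at 149, 98.4, 163, 202 and 111 CPM in TC and 7.35, 15.1, 18.2, 17.4 and 7.08 CPM in TAM. Rod1, now called Ptbp3, the form of blood cells, differed by 2.46 ± 0.28 (SE). Elavl3 and Elavl2, neuronal RNA-binding proteins, differed by -5.67 ± 0.54 (SE) and -5.55 ± 1.03 (SE), and Mbnl1, a regulator of developmental exons, by 2.18 ± 0.21 (SE). Of 27 chromatin regulators, 10 were higher in TC, 5 in TAM and 12 not called, and under library totals 18 were higher in TC and 1 in TAM. Of the 2 H3K27 methyltransferases, Ezh1 was at 130.5, 76.3, 85.7, 104 and 63.1 CPM in TAM and 13.8, 23.8, 21.7, 17.9 and 11.3 CPM in TC and Ezh2 at 49.9, 52, 30.3, 41.3 and 79.6 CPM in TC and 6.8, 21.3, 14.7, 15.5 and 28.1 CPM in TAM. Smarca1, an ISWI remodeller of neural tissue, differed by -6.10 ± 0.68 (SE), and Tet1, which oxidises methylcytosine, by -2.95 ± 0.32 (SE). Of 12 microRNA machinery genes, 4 were higher in TC and Eif2c3, now called Ago3, in TAM (0.91), a call lost under library totals and in 4 of the 5 fits that leave out 1 mouse, and under library totals 8 of the 12 were higher in TC. Of 38 ribosomal protein genes, 32 were not called, 5 were higher in TC and 1 in TAM, and under library totals 34 were higher in TC.

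**Figure D3:**
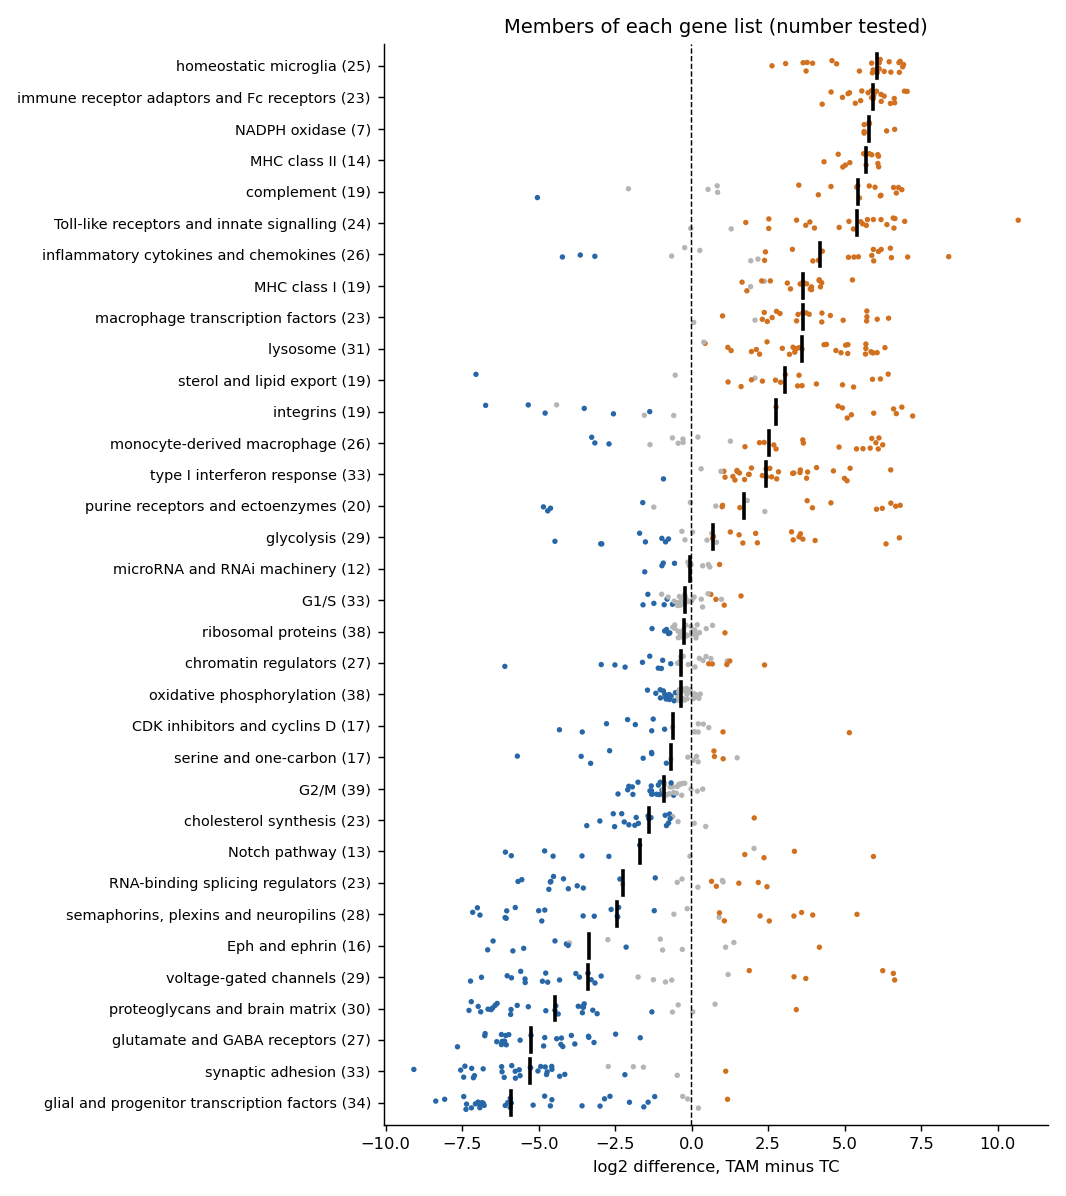
Log2 difference (TAM minus TC) of every tested member of 34 gene lists, 1 row per list ordered by median, with orange points higher in TAM, blue points higher in TC, grey points not called and a black bar at the median. The dashed line is the median of all 14022 genes tested, -0.02, and lists of lineage function lie far from it while division, respiration and ribosome lists lie near it.

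Signals between the populations were examined with 94 pairs of a ligand and its receptor, chosen with earlier results of these data known. Both genes were tested in 75 pairs and both were called in 57. Ligand and receptor were both higher in TAM in 20 pairs and both higher in TC in 16. In 13 pairs the ligand was higher in TC and the receptor in TAM, and in 8 pairs the ligand was higher in TAM and the receptor in TC. The gate gene Pdgfra is the receptor of Pdgfa and Pdgfb in the last kind and of Pdgfc in pairs higher in TC. Its side was set by the sort, so it is no result in these counts or in those of receptors. Over single genes, 26 of 62 ligands tested were higher in TAM and 28 in TC, and 32 of 66 receptors were higher in TAM and 25 in TC.

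The CSF-1R ligands came from opposite sides. Csf1 was higher in TAM at 588, 220.3, 101, 106 and 155 CPM in TAM and 19.4, 23.6, 24.6, 14.2 and 32.6 CPM in TC, with a log2 difference of 3.03 ± 0.42 (SE, adjusted p = 0.000494). TAM of mouse 54359 held more than 2 times the level of the other TAM, and TC held 3.30 to 24.3% of the TAM level of the same mouse. Il34 was higher in TC at 4.61, 10.3, 7.71, 6.29 and 4.08 CPM in TC and 1.3, 0, 0.600, 0.336 and 0.146 CPM in TAM, with a log2 difference of -4.25 ± 1.00 (SE, adjusted p = 0.00733). Other ligands higher in TC met receptors higher in TAM. Cx3cl1, fractalkine, was at 17.1, 23.6, 39.8, 25.9 and 21 CPM in TC and 0.309, 1.65, 0.557, 0.715 and 2.1 CPM in TAM, opposite Cx3cr1. Cd200, an inhibitor of myeloid cells, was at 81.1, 72.8, 108, 117 and 74 CPM in TC and 2.16, 0.361, 1.16, 3.03 and 2.63 CPM in TAM, opposite its receptor Cd200r1 at 44.5, 34.9, 60.3, 65 and 44.3 CPM in TAM and 1.93, 0.248, 2.01, 0.0300 and 3.62 CPM in TC. The log2 differences of these 3 genes were -4.78 ± 0.53 (SE), -5.77 ± 0.45 (SE) and 5.52 ± 0.88 (SE).

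Tgfb2 and Tgfb3 were higher in TC at 19.5, 16.8, 16.7, 36.4 and 5.85 CPM in TC and 2.35, 0.103, 0.900, 0.378 and 0.488 CPM in TAM and at 13.3, 13.9, 16.5, 15.7 and 16.6 CPM in TC and 0, 0.464, 1.24, 1.93 and 0.195 CPM in TAM. Their receptor Tgfbr2, which microglia need to keep their resident state, was higher in TAM at 531, 447, 282, 267 and 289 CPM in TAM and 5.27, 35, 11, 3.42 and 23.3 CPM in TC, with a log2 difference of 4.95 ± 0.56 (SE, adjusted p = 0.000168). Tgfb1 was called higher in TAM, but it is listed at only 10.5, 4.85, 4.2, 3.32 and 3.27 CPM there, very low for a gene that microglia express widely, so it is left as uncertain. Vegfa was higher in TC at 16.2, 32.7, 25.8, 23.3 and 20.1 CPM in TC and 0.741, 2.48, 1.07, 3.83 and 3.07 CPM in TAM, and its co-receptor Nrp1 higher in TAM at 331, 203, 545, 484 and 387 CPM in TAM and 13.1, 21, 29, 34.8 and 27.4 CPM in TC. Kdr, the endothelial VEGF receptor and one of the endothelial markers, was called higher in TAM with overlapping groups (9.82 ± 3.59 CPM in TAM and 2.51 ± 2.8 CPM in TC, SD, n = 5 each), a call lost when mouse 54359 or 57098 was left out. Cxcl12 and Cxcr4 lay on the TC and TAM sides at -3.66 ± 1.11 (SE) and 3.46 ± 0.45 (SE), and Cxcl12 lost its call when mouse 54359, 57098 or 57682 was left out. The remaining pairs of this kind joined Lif, Jag1, Mdk, Sema3a and Sema6a to Lifr, Notch2, Lrp1, Nrp1 and Plxna4, of which the calls of Lifr and Plxna4 were lost under library totals. Plxna4 also lost its call when mouse 54363, 57098, 57682 or 64247 was left out, and Jag1 when mouse 57098 or 57682 was left out.

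Of ligands higher in TAM with receptors higher in TC, Igf1 was at 68.9, 14.7, 37.6, 90.0 and 53.2 CPM in TAM and 1.47, 5.21, 0.856, 1.26 and 2.53 CPM in TC, with a log2 difference of 4.72 ± 0.73 (SE, adjusted p = 0.000828). The TC library of mouse 54363 held 35.5% of the level in its TAM partner, the lowest TAM library, and the other TC libraries held 1.40 to 4.74%. Igf1r was at 18.4, 45, 47, 38.8 and 16.3 CPM in TC and 13.5, 7.79, 14.8, 11.1 and 12.2 CPM in TAM, with a log2 difference of -1.38 ± 0.36 (SE, adjusted p = 0.0124), a difference that did not pass the test against 2-fold. The groups of Igf1r do not overlap, but TC of mice 54359 and 64247 lay close to the highest TAM library. Pdgfb, the mouse gene of the ligand that drove these tumours, was higher in TAM at 65.9, 95.4, 28.5, 26.5 and 48.9 CPM in TAM and 11.2, 8.8, 8.56, 10.6 and 15.9 CPM in TC, with a log2 difference of 2.12 ± 0.34 (SE, adjusted p = 0.00102), and TC held 9.23 to 40.0% of the TAM level. Whether transcripts of the injected PDGFB were counted under this gene is not given in the sources used here. Pdgfa was higher in TAM by 1.34 ± 0.29 (SE), a call lost under library totals. Pdgfc was higher in TC at -2.65 ± 0.90 (SE), a call lost in 4 of the 5 fits that leave out 1 mouse.

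Osm, oncostatin M, was at 20.3, 30.2, 17.5, 17.6 and 25.4 CPM in TAM and 0.558, 0.124, 0.325, 0.180 and 0.337 CPM in TC, and its receptor Osmr at 12.3, 3.84, 9.48, 13.1 and 5.98 CPM in TC and 0.247, 0.0516, 0.472, 0.336 and 1.71 CPM in TAM. The log2 differences were 6.19 ± 0.48 (SE, adjusted p = 2.57e-05) and -4.52 ± 0.77 (SE, adjusted p = 0.00145). Spp1, osteopontin, was at 3449, 1503, 1057, 2943 and 3606 CPM in TAM and 155, 371, 51.2, 13.2 and 207 CPM in TC, and the integrin Itgav at 339.9, 96.3, 359, 693 and 322 CPM in TC and 49.7, 70.6, 53.4, 54.9 and 43.4 CPM in TAM, while its other receptor Cd44 did not pass (88.7 ± 74.4 CPM in TAM and 93.2 ± 38.1 CPM in TC, SD, n = 5 each). Sema4d was higher in TAM (5.40 ± 0.37 (SE)), with one receptor, Plxnb1, higher in TC (-4.80 ± 0.47 (SE)) and another, Plxnb2, higher in TAM (3.59 ± 0.38 (SE)). Pros1 was higher in TAM (2.63 ± 0.26 (SE)), as were the receptors Mertk and Axl (5.90 and 2.52), and the third receptor of the family, Tyro3, was higher in TC at 21.1, 10.9, 9.86, 14.2 and 11.9 CPM in TC and 0.556, 0.722, 0.214, 0.421 and 0.0488 CPM in TAM. Psap, prosaposin, differed by 4.71 ± 0.31 (SE) and its receptor Gpr37l1 by -6.72 ± 0.29 (SE).

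Within TC, Ptn, pleiotrophin, was at 431, 165, 489, 504 and 420.2 CPM in TC and 3.83, 1.24, 2.23, 3.45 and 3.22 CPM in TAM, and its receptor Ptprz1 at 777, 278, 1082, 1424 and 636 CPM in TC and 4.57, 7.58, 6.47, 5.3 and 6.15 CPM in TAM. Log2 differences of -7.17 ± 0.24 (SE, adjusted p = 3.23e-06) and -6.97 ± 0.49 (SE, adjusted p = 1.82e-05) were found. Further pairs with both genes higher in TC were Hbegf and Egfr (-3.84 and -4.19), Nrg1 and Erbb3 (-3.51 and -5.41), and Ntn1 (netrin-1) and Dcc (-5.19 and -5.72). Bdnf with Ntrk2 (-4.68 and -6.09) and Slit2 with Robo1 (-6.30 and -4.81) were also called. Bdnf lost the call when mouse 54359 or 57098 was left out, and Robo1 when mouse 54359, 57098 or 57682 was left out. Within TAM, Ccl3 and its receptor Ccr1 differed by 5.30 and 7.29, Lgals9 and Havcr2 (TIM-3) by 4.60 and 6.42, and Apoe and Trem2 by 4.08 and 5.93. Cd47, the signal that restrains uptake by macrophages, was higher in TAM and not in TC, at 71.5, 68.3, 99.7, 91.3 and 90.4 CPM in TAM and 42.5, 40.9, 53, 43.9 and 59.1 CPM in TC, with a log2 difference of 0.81 ± 0.16 (SE, adjusted p = 0.0029), and under library totals it was -0.088 (adjusted p = 0.679) and not called. Its receptor Sirpa differed by 4.55 ± 0.28 (SE).

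**Figure D4:**
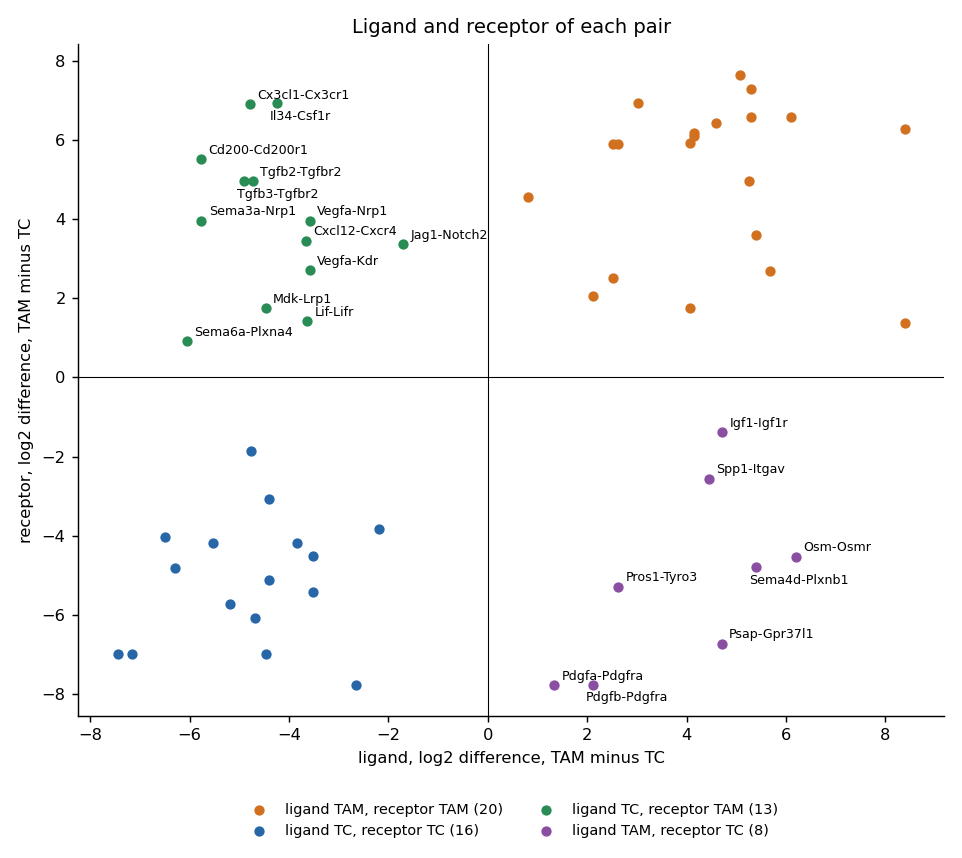
Log2 difference (TAM minus TC) of the ligand (horizontal) and of the receptor (vertical) for the 57 pairs in which both genes were called. Of these, 20 lie in the upper right (both higher in TAM), 16 in the lower left (both higher in TC), 13 in the upper left (ligand higher in TC, receptor in TAM) and 8 in the lower right. For pairs with the gate gene Pdgfra the side of the receptor was set by the sort.

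Contact signals were mixed. Of 13 Notch pathway genes, 7 were higher in TC and 4 in TAM. The target genes Nrarp and Hes5 were higher in TC (-6.08 and -5.89, with 79.4% and 31.8% of their exon length overlapping other genes), and Notch2 and Mfng, which modifies Notch receptors with sugar, in TAM (3.36 and 5.94). Notch1 did not pass at 75.3 ± 7.16 CPM in TAM and 94.2 ± 54.9 CPM in TC (SD, n = 5 each). Of 16 Eph and ephrin genes, 8 were higher in TC and Epha2 was higher in TAM at 32.2, 26.2, 27.5, 20.1 and 24.1 CPM in TAM and 1.77, 0.744, 1.3, 0.629 and 5.35 CPM in TC. Of 28 semaphorins, plexins and neuropilins, 17 were higher in TC, led by Sema3d (-7.15), and 8 in TAM. Of 19 integrins, 10 were higher in TAM, led by Itgal of leukocytes (7.22), and 6 in TC, led by Itgb8, which activates latent TGF-beta, at 33.7, 12, 64.9, 81.8 and 29.5 CPM in TC and 0.371, 0, 1.16, 0.378 and 0.390 CPM in TAM. The gate gene Itgam is among the 10.

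Of the enzymes that break down extracellular ATP, members were called on both sides. Entpd1 (CD39), which turns ATP and ADP into AMP, was higher in TAM at 675, 512, 821, 557 and 289.9 CPM in TAM and 36.4, 36.8, 43.9, 45.9 and 35.6 CPM in TC. Nt5e (CD73), which turns AMP into adenosine, was higher in TC at 91.7, 44.8, 264, 285 and 124 CPM in TC and 1.05, 1.03, 4.55, 25.4 and 12.1 CPM in TAM. Entpd2, another enzyme that hydrolyses extracellular ATP, was higher in TC, at 0 to 0.927 CPM in TAM and 2.31 to 15.6 CPM in TC, with a log2 difference of -4.70 ± 1.15 (SE, adjusted p = 0.00868). Entpd1 and Nt5e differed by 3.77 ± 0.24 (SE, adjusted p = 1.23e-05) and -4.84 ± 0.55 (SE, adjusted p = 0.000165) on the log2 scale. The adenosine receptor Adora3 was higher in TAM at 308, 254, 219.9, 188 and 184 CPM in TAM and 1.77, 3.29, 2.18, 0.389 and 8.25 CPM in TC, and the ADP receptor P2ry13 differed by 6.81 ± 0.45 (SE). In all, 11 of 20 purine receptors and ectoenzymes were higher in TAM, 4 in TC and 5 were not called.

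Per kilobase of exon, the 10 most abundant genes in TAM included Ctsd, Cst3, C1qb, Actb, Ctss, Apoe, Tmsb4x, Cd74 and Lgmn, among which Ctsd, Ctss and Lgmn encode lysosomal proteases. Ctsd, cathepsin D, reached 28977 CPM per kilobase in TAM and 482 in TC. In TC the list ran Actb, Mir682, Eef1a1, Sepw1, Cst3, Fth1, Tuba1a, Beta-s, Ckb and Rpl32, with Actb at 3277 CPM per kilobase. Sepw1, a selenoprotein now called Selenow, was at 1559 CPM per kilobase in TC and 430 in TAM. Cst3, the cathepsin inhibitor cystatin C, stood on both lists, at 18363 CPM per kilobase in TAM and 1434 in TC, and its TC level was 4.84 to 14% of the TAM level of the same mouse. Beta-s is adult beta-globin of red cells, and its CPM was 402, 3178, 11.2, 13.7 and 230.0 in TC, highest in mouse 54363, and 71.7, 265, 2.92, 10.8 and 96.7 in TAM. The row Mir682 shares all its bases with another gene, and Hba-a1 and Hba-a2, near-identical alpha-globin genes, are listed at 0 in all 10 libraries.

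The difference between TAM and TC in Vehicle was compared with the same difference in the Rebound and Endpoint stages of BLZ945 treatment. The fit took 32 libraries, with the mouse as a block and a TAM term for each stage. In Rebound, a TAM library and a TC library came from different mice and had no partner. With the mouse as a block, such unpaired libraries do not inform the Rebound difference, which rests on the complete pairs alone. In the 22 BLZ945 libraries every deposited count is even, while 84929 of the 165109 counts above 0 in the Vehicle libraries are odd, so a difference in counting and the treatment cannot be told apart. In this fit 8402 of 15668 genes (53.6%) were called in Vehicle, 6589 (42.1%) in Rebound and 7716 (49.2%) in Endpoint. Of the Endpoint calls 3190 (20.4% of the genes tested) were higher in TAM and 4526 (28.9%) higher in TC. Vehicle and Rebound shared 5739 calls of the same sign, 68.3% of the Vehicle calls and 87.1% of the Rebound calls, and 8 of opposite sign. Vehicle and Endpoint shared 4942 (58.8% and 64.0%), and 248 were of opposite sign.

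The test of the difference between stages called 4 genes (0.0255%) for Vehicle against Rebound, 2 in each direction (0.0128%). Serpinf1, a secreted protein also known as PEDF, was higher in TAM in Vehicle (log2 difference 3.43) and lower in Rebound (-2.58), a gap of 6.01 ± 0.65 (SE, adjusted p = 0.00126). Its means were 89.2 ± 28.8 CPM in TAM and 9.04 ± 5.88 CPM in TC of Vehicle, and 8.39 ± 3.98 CPM in TAM and 61.9 ± 58.8 CPM in TC of Rebound (SD, n = 5). Phgdh, the first enzyme of serine synthesis, went from 0.72 to -1.55 (adjusted p = 0.0267), with 151.1 ± 54.5 CPM in TAM of Vehicle and 22.1 ± 4.09 CPM in TAM of Rebound. Scd1, a fatty acid desaturase, and Prkcz, an atypical protein kinase C, were higher in TC in both stages, by more in Vehicle, with gaps of -3.04 ± 0.49 and -2.89 ± 0.44 (SE, adjusted p = 0.0453 and 0.0302). Without the mouse as a block, when the unpaired Rebound libraries also enter the difference, the count was 81. It was 8 without mouse 54359 and 1 without mouse 57098 or 64247, and Serpinf1 alone kept its call in all 5 fits that leave out 1 Vehicle mouse.

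For Vehicle against Endpoint 3484 genes (22.2%) were called, 2146 (13.7%) with a more positive difference in Vehicle and 1338 (8.54%) with a more negative one. Among genes with a mean of at least 100 CPM in a group, the largest positive gaps were those of F5 (coagulation factor V), Cd7 and Ikzf3, known from lymphocytes, and Serpina3g, at 12.76, 12.64, 11.90 and 12.62. In the order F5, Cd7, Serpina3g and Ikzf3 they averaged at most 21.0 CPM in a Vehicle group and reached 218 ± 254, 107 ± 101, 111 ± 98.0 and 102 ± 81.2 CPM (SD, n = 6) in TC of Endpoint. The largest negative gaps were those of Aldh1a3, Fbn2, Lpo and Rasl11a, at -9.35, -9.14, -6.34 and -5.77. Of these, Rasl11a was at 205 ± 59.9 CPM in TC of Vehicle (SD, n = 5) and 0.992 ± 0.526 CPM in TC of Endpoint (SD, n = 6).

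**Figure D5:**
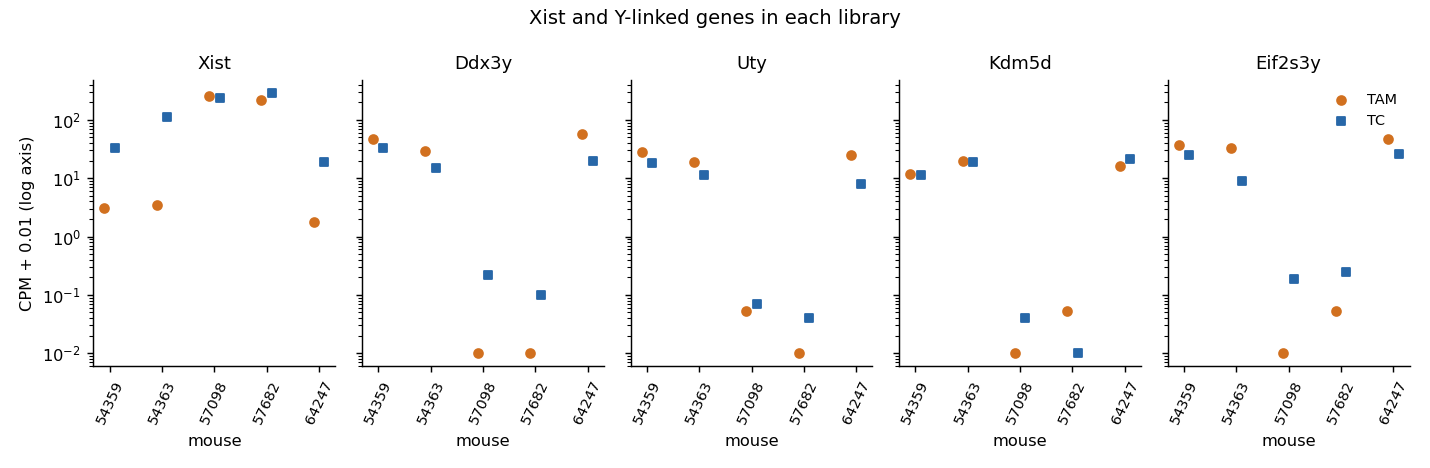
CPM on a log axis, with 0.01 added, of Xist and 4 Y-linked genes in the TAM (orange) and TC (blue) library of each mouse. TAM libraries hold either Xist or Y-linked transcripts, and the TC libraries of mice 54359, 54363 and 64247 hold both.

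Sex-chromosome genes served to compare the members of a pair. Xist, the transcript that silences an X chromosome in female cells, was at 3.03, 3.51, 260.3, 217 and 1.76 CPM in TAM and 33, 111, 239, 292 and 18.9 CPM in TC. Ddx3y, a Y-linked helicase, was at 46.3, 29.8, 0, 0 and 56.9 CPM in TAM and 32.3, 14.9, 0.207, 0.0899 and 19.5 CPM in TC. TAM of mice 54359, 54363 and 64247 held Y-linked transcripts with almost no Xist, and TAM of mice 57098 and 57682 the reverse. The TC libraries followed their TAM partners for Ddx3y, but in the 3 mice with Y-linked transcripts TC also held Xist, at 33, 111 and 18.9 CPM. Uty, Kdm5d and Eif2s3y followed the pattern of Ddx3y. The test gave Xist a log2 difference of -2.40 ± 0.83 (SE, adjusted p = 0.0367), and the call was lost without the mouse as a block and when mouse 54359, 54363 or 64247 was left out. Xist shares 12.6% of its exon length with an antisense gene, which counts without strand cannot part. With the 2 mice whose TC showed no such mixture (57098 and 57682) alone, a setting chosen after seeing the data, 3835 genes were higher in TAM and 4126 higher in TC, against 3933 and 4068 with all 5. Both libraries of these 2 mice held Xist, so added cells with Xist could not be seen in them.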

How the data were processed

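RNA-seq was analysed from 10 Vehicle libraries, 5 of TAM and 5 of TC, with 22 libraries of the BLZ945 stages for the last comparison. The values are deposited raw counts per gene, which the authors made from paired 50-base reads of SMART-Seq libraries. STAR 2.3.0e, SAMtools and the build mm10 are named in the submitters' processing notes, and the counting program is not given in the sources used here. The count of columns belonging to other series was 0. Depth sets the precision: TAM libraries held 25556830 to 30383148 counts and TC libraries 13126801 to 22989777.

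Genes with low counts were removed with edgeR's filterByExpr, and 14022 remained. TMM factors (0.593 to 0.814 in TAM, 1.23 to 1.50 in TC) scaled the libraries, and edgeR 4.0.16 (R 4.3.3) fitted quasi-likelihood models with the mouse as a block, testing for any difference and for more than 2-fold. P-values were adjusted by Benjamini-Hochberg over all genes tested, with a threshold of 0.05. Standard errors were taken from the log2 difference and the F statistic. The labels give the same mouse number to both libraries of a pair, so the pairing is by animal, and the same-mouse correlation of deviations from the group means was 0.164, 0.0594, 0.377, 0.242 and 0.119. The highest correlation of each TAM library with the TC library of another mouse was 0.0817, 0.164, 0.286, 0.209 and 0.0653. In mouse 54363 it exceeded the same-mouse value. The 32-library fit held the mouse as a block and a TAM term for each stage, and Rebound libraries without a partner did not inform its Rebound difference. No 2 libraries were alike within sampling noise (lowest chi-square per degree of freedom 66.1).

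On simulated counts for the Vehicle comparison, 98 of 100 genes changed by 8-fold, 33 of 100 changed by 2-fold and 5 of 13822 unchanged genes were called. In the simulation TAM and TC shared a common baseline, few genes were changed, as many up as down, and the spread was fixed. In the data 57.1% of genes were called, so these counts check the code and do not give the power or error rate of the comparison. Gene models were matched by symbol to GENCODE M21 (20915 of 23337 symbols, and 1899 by synonym). Alternatives were the fit with no block, other scaling, DESeq2 1.42.0, no filter, no Rn45s, and each mouse left out. The members, gene lists and pairs were chosen with earlier results of these data known. Genes named were the gate genes, the 12 with the largest difference each way among those called beyond 2-fold with a mean of at least 100 CPM in 1 population and the same sign in all 5 mice, for each list the 2 largest each way and the most abundant not called, ligands, receptors and members of gene families, the 10 highest per kilobase, and for each stage test the 4 called with the largest change each way and at least 100 CPM in 1 group. The other members of the lists named, and Cd3e, were added after their values were seen. Some genes that this rule names are not reported here.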

Additional observations from a re-analysis of the deposited data

Results flagged for a closer look

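In 32 of 202 groups of 5 libraries, 1 library stood far from the other 4 by Dixon's test. Its rate by chance of about 1 in 20 holds for independent, normally distributed values. These are unlogged CPM of genes in the same libraries, so the count cannot be compared with that rate. Mouse 54359 was highest in TAM for the summed myeloid markers (104241 CPM), Csf1r (20988 CPM), Csf1 (588 CPM), Vav1 (811 CPM), Gldc (2.29 CPM) and Nkx2-2 (0.185 CPM), and in TC for Cdk6 (0.862 CPM). Its TAM library has the lowest TMM factor, 0.593 against 0.730 to 0.814 in the other TAM libraries, and a low factor raises every CPM of a library. The part of this scaling in the flags was not tested. Mouse 54363, whose TC library held the most astrocyte, myelinating and red cell transcripts, was highest in TC for Beta-s (3178 CPM), Cxcl1 (85.3 CPM), Fn1 (239 CPM) and Pik3cd (18.6 CPM), lowest in TC for Ptn (165 CPM) and highest in TAM for Cxcl1 (3.71 CPM).

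Mouse 57098 was highest in TAM for Cxcl9 (58.9 CPM), Hk3 (617 CPM) and Serping1 (4.12 CPM), and lowest in TAM for the tumour and precursor markers (43.2 CPM). In TC it was highest for B430306N03Rik (1.51 CPM), Cxcl9 (0.443 CPM), H2-T23 (76.8 CPM), Kcnj2 (6.58 CPM) and Serping1 (118 CPM). Mouse 57682 was highest in TAM for Ccr2 (919 CPM). Mouse 64247 was highest in TAM for Ldhb (359 CPM), Cacng5 (2.59 CPM), Moxd1 (2.05 CPM) and Osmr (1.71 CPM), and in TC for Hk2 (51 CPM), Oas3 (4.17 CPM), Retnlg (15.5 CPM), Sfpi1 (4.34 CPM) and Epha2 (5.35 CPM).

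The difference between TAM and TC itself differed between stages, tested in the 32-library fit. For Vehicle minus Rebound the log2 gap was 6.01 for Serpinf1, 2.27 for Phgdh, -3.04 for Scd1 and -2.89 for Prkcz. For Vehicle minus Endpoint it was 12.76 for F5, 12.64 for Cd7, 12.62 for Serpina3g, 11.90 for Ikzf3, -9.35 for Aldh1a3, -9.14 for Fbn2, -6.34 for Lpo and -5.77 for Rasl11a.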

How the results depend on the processing

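The total of genes called stayed within 1.5 times of 8001 under every alternative run (6882 to 9431). With library totals the split moved to 2179 higher in TAM and 7252 higher in TC, and beyond 2-fold to 1497 and 4566. Against 4-fold, 3188 genes passed, 1385 of them higher in TAM. Without the mouse as a replicate block 7563 genes were called, 3612 higher in TAM and 3951 higher in TC. With mice 57098 and 57682 alone the counts were 3835 and 4126. For Vehicle against Rebound the count of 4 became 8 with RLE size factors, 10 with BLZ945 counts halved, 22 with no filter and 81 with no replicate block, and leaving out each mouse gave 1 to 8. The cause was not tested. For Vehicle against Endpoint every alternative run stayed within 1.5 times of 3484.

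Of 259 genes named for the Vehicle comparison 236 were called, and 212 of these kept the call and direction under every alternative with a value. Named genes that were not called could also gain a call, 6 with DESeq2 and 7 under library totals. Those gained with DESeq2 were Eno1, H2-Q4, Mki67, Nr1h3, S100a6 and S100a9. Under library totals the difference turned to -0.65 for Akt1, -0.51 for Atp6v1a, -0.088 for Cd47, -0.22 for Ldha, -0.68 for Myc and -0.80 for Rpl32, and with mice 57098 and 57682 alone to 0.86 for Cd44. When 1 mouse was left out, 15 genes lost the call in at least 1 fit. They were Bdnf without 54359 or 57098 (edgeR adjusted p = 0.0539 to 0.0574), Cmpk2 without 54359, 54363, 57098 or 57682 (edgeR adjusted p = 0.0506 to 0.106), Cxcl12 without 54359, 57098 or 57682 (edgeR adjusted p = 0.0562 to 0.0699), Eif2c3 without 54363, 57098, 57682 or 64247 (edgeR adjusted p = 0.0505 to 0.0861), Glul without 54359, 57098 or 64247 (edgeR adjusted p = 0.0598 to 0.066), Jag1 without 57098 or 57682 (edgeR adjusted p = 0.0564 to 0.0619) and Kdr without 54359 or 57098 (edgeR adjusted p = 0.0588 to 0.0678). The others were Ldha without 54359, 57682 or 64247 (edgeR adjusted p = 0.0651 to 0.0809), Ngp without 54359, 57098, 57682 or 64247 (edgeR adjusted p = 0.112 to 0.176), Pdgfc without 54359, 54363, 57098 or 64247 (edgeR adjusted p = 0.052 to 0.114), Plxna4 without 54363, 57098, 57682 or 64247 (edgeR adjusted p = 0.0633 to 0.134), Robo1 without 54359, 57098 or 57682 (edgeR adjusted p = 0.0558 to 0.0704), Src without 57098, 57682 or 64247 (edgeR adjusted p = 0.1 to 0.117), Xist without 54359, 54363 or 64247 (edgeR adjusted p = 0.0918 to 0.128) and Yes1 without 54363, 57098 or 57682 (edgeR adjusted p = 0.0593 to 0.0653). No block lost 8 calls, those of Beta-s, Eif2c3, Glul, Ldha, Ngp, Plxna4, Src and Xist. Genes near the floor of 3 counts are limited by depth, and SE values do not cover differences in counting.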

Other observations

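Genes higher in TC beyond 2-fold were longer than those higher in TAM: the median span from first to last exon was 36.2 kb against 22.4 kb, with 24.5 kb for all genes tested. Of 9 motifs counted in promoters, those of NF-kB were in 0.155% of all promoter windows (51 of 32851) and 0.208% of those of genes tested (29 of 13975). They were in 0.581% of those of genes higher in TAM beyond 2-fold (14 of 2409) and in 0.0741% of those of genes higher in TC (2 of 2700). For the same TAM and TC sets, the shares were 5.15% and 3.96% for TGACTCA (AP-1) and 1.95% and 1.52% for ATTTGCAT (octamer). The E-box letters CAGCTG were in 17.4% and 19.3%, CACGTG in 9.92% and 7.11%, and CATATG in 2.82% and 2.33%. Among promoters of all genes tested, TGACTCA was in 3.71%, ATTTGCAT in 1.35%, CAGCTG in 15.7%, CACGTG in 9.62% and CATATG in 1.87%. Over all promoters, in the same order, the shares were 5.20%, 1.74%, 16.3%, 7.15% and 3.91%. A match of letters is a description and not a site of binding. Csf1 and Csf1r, ligand and receptor, were both highest in TAM of mouse 54359, at 588 and 20988 CPM, in the library with the lowest TMM factor (0.593), which raises its CPM.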
